A study of Homo sapiens with 6 samples.

Results

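The 10 genes described here code for cell adhesion molecules of the immunoglobulin superfamily that are known from the nervous system: the L1 family (L1CAM, CHL1, NRCAM and NFASC), the NCAM family (NCAM1 and NCAM2), CADM1, the related receptors ALCAM and MCAM, and the contactin CNTN1. They were chosen by symbol, and all 10 were found among the 17081 genes of the deposited count file. RNA was measured in tumour tissue of DMS114, an established human line of small cell lung cancer, taken from a model in which the cells invade the sciatic nerve. The groups were 3 libraries of distal tumour tissue (distal 1 to 3) and 3 of proximal tumour tissue (proximal 1 to 3), all from the same cell line and with no other treatment, genotype, host strain, age or day in the labels. Whether replicates are separate animals is not in the labels, and p-values therefore cover the spread between these 6 libraries, part of which may be technical.

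These molecules carry immunoglobulin domains on the outside of the cell and bind the same or a related molecule on a neighbouring cell. Those of the L1 family also hold the spectrin skeleton through ankyrin, and contactins, which have no part inside the cell, signal through partners in the membrane. In nerve they guide and bundle axons and join axons to Schwann cells, and NCAM1, under its name CD56, is used in pathology to recognise small cell lung cancer.

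The depth was 16171106 to 24217043 counts in the distal libraries and 21865148 to 26116191 in the proximal ones. Levels are given as CPM, that is counts divided by the library size after TMM scaling (a trimmed mean of log ratios between libraries), per 1000000 reads. Intervals on single libraries are exact 95% Poisson intervals and reflect counting error alone. Of the markers used to check the label, YAP1, a Hippo pathway coactivator that marks a subset of small cell lines, was read at 167 to 184 CPM in distal and 168 to 187 CPM in proximal tumour. The neuroendocrine vesicle protein gene SYP was read at 59.5 to 63.9 CPM in distal and 56.9 to 60.8 CPM in proximal tumour. Distal 3 stood apart from the other libraries. The summed level of 14 skeletal muscle markers was 4.85, 24.0 and 2318 CPM in distal 1 to 3 and 7.85, 34.7 and 323.0 CPM in proximal 1 to 3. Host reads that map to human genes could be part of any count, and fewer cells of a type cannot be told apart from less RNA per cell in bulk tissue.

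A count for one family member could hold reads of another only if their transcripts are near-identical, so the closest coding stretches were looked up first in GENCODE v29 transcripts (GRCh38). NCAM1 and NCAM2 shared no run of 31 bases, and neither did any pair within the L1 family. The 60 bases where NCAM1 and NCAM2 are most alike, each within a single exon, were identical at 42 positions and are shown here because the levels of these paralogs are set side by side in the results. The NCAM1 stretch lies in exon 6 of its transcript, at chr11:113206061-113206120 on the plus strand, and that of NCAM2 in exon 5, at chr21:21292122-21292181 on the plus strand. Capitals mark the 18 bases that differ.
NCAM1: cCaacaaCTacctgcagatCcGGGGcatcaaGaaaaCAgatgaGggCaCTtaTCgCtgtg
NCAM2: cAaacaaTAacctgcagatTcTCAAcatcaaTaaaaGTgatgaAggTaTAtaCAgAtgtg

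In the L1 family the closest stretch joined L1CAM and NRCAM, with 50 of 60 bases identical. It lies in exon 29 of L1CAM at chrX:153862726-153862785 and in exon 33 of NRCAM at chr7:108149973-108150032, both on the minus strand, near the end of the coding sequence. This part codes for the tail inside the cell, where the L1 family binds ankyrin. Capitals mark the 10 differing bases, and the pair is shown because it is the most conserved stretch that was found between these genes.
L1CAM: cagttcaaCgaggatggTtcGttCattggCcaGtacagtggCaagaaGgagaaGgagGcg
NRCAM: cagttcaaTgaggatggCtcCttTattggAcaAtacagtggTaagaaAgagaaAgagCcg

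DMS114 tumour tissue carried a broad but uneven set of these molecules. Per kilobase of the transcript with the longest coding sequence, CADM1 had the highest mean level over all 6 libraries, at 15.1 CPM per kb. It was followed by NCAM2 (5.08 CPM per kb), NFASC (4.18), ALCAM (3.76), L1CAM (3.74), MCAM (2.08), CNTN1 (0.661), NCAM1 (0.201), NRCAM (0.150) and CHL1 (0.0147). The library values of NCAM2, NFASC, ALCAM and L1CAM overlapped from neighbour to neighbour, so their order is not resolved. The values of CNTN1 and NCAM1 overlapped, as did those of NCAM1 and NRCAM. The place of CADM1 depended on the length used. Its transcript has 1766 bases, while the union of its annotated exons has 11017, and per kilobase of that union CADM1 had 2.41 CPM and NCAM2 came top at 4.93. Under transcript length, union of exons and coding length alike, CADM1, NCAM2, NFASC, ALCAM and L1CAM took the upper 5 places, MCAM and CNTN1 the next, and NCAM1, NRCAM and CHL1 the last.

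**Figure D1:**
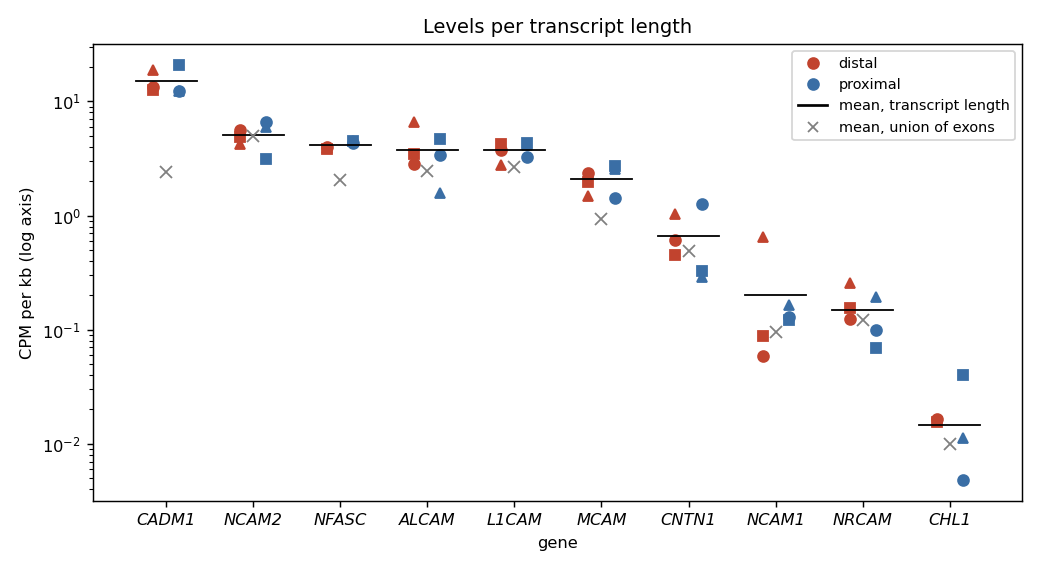
CPM per kilobase of transcript on a log axis for each gene, distal libraries in red at the left and proximal libraries in blue at the right of each column; circles, squares and triangles are replicates 1, 2 and 3, lines are means over 6 libraries and crosses are the means per kilobase of the union of exons. CHL1 in distal 3 had 0 reads and is not drawn; the means span 15.1 for CADM1 to 0.0147 CPM per kb for CHL1.

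None of the adhesion genes passed the test of distal against proximal tumour. Among 13382 genes tested with edgeR's quasi-likelihood test and Benjamini-Hochberg adjustment, 0 were called (0%), and so were 0 of the 9 members that passed the expression filter. CHL1 had too few reads to be tested. At an unadjusted p under 0.05 there were 0 members, where 1.33% of all tested genes reached it, and DESeq2, which called 0.00747% of all tested genes, likewise had 0 members at either threshold. Distal values were higher for 4 of the 9 members and lower for 5, with a median log2 fold change (distal minus proximal) of -0.02, against 0.00 for all tested genes. The 95% interval of the fold change stayed inside 2-fold on each side for L1CAM, NFASC, NCAM2, CADM1 and MCAM, which makes 5 of 9 members against 84% of all tested genes. For NRCAM, NCAM1, ALCAM and CNTN1 the interval was wider and held differences above 2-fold, so these libraries do not bound them as closely.

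**Figure D2:**
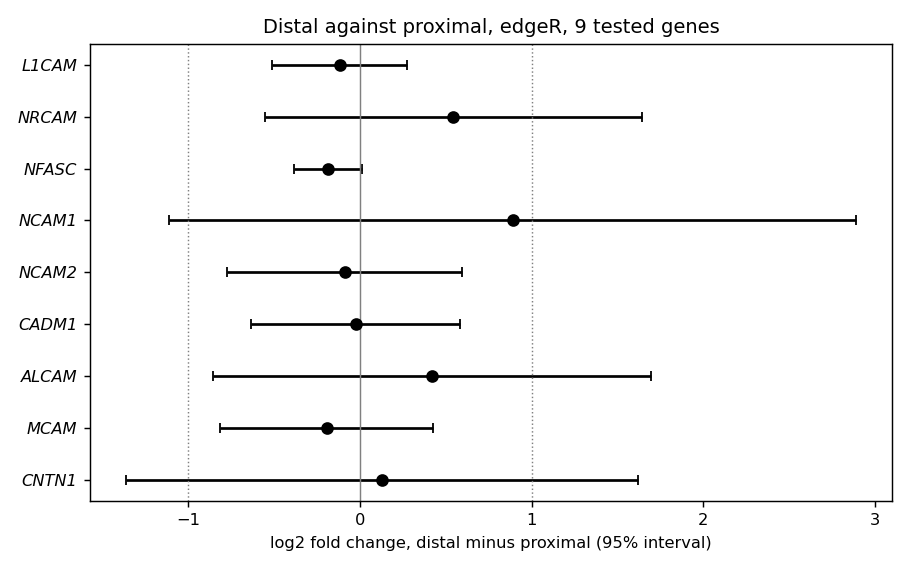
Log2 fold changes, distal minus proximal, with 95% intervals from edgeR for the 9 tested genes; dotted lines mark 2-fold. Every interval crosses 0, and the narrowest, that of NFASC, reaches from -0.38 to 0.01.

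Among the L1 family, NFASC was the steadiest member and the only one of the 9 whose groups did not overlap. NFASC (neurofascin, which gathers channels and partners at the initial segment and nodes of axons, chromosome 1, 204828652 to 205022822, GRCh38.p14 RefSeq) had 41.4, 39.8 and 40.1 CPM in distal 1 to 3, against 44.8, 46.6 and 46.5 CPM in proximal 1 to 3. Each distal value was thus below each proximal one. The log2 fold change was -0.18 (SE 0.09, 95% interval -0.38 to 0.01), with an adjusted p of 0.9997 by edgeR's quasi-likelihood test (0.0660 before adjustment). By exact permutation (two-sided) p was 0.1, the least that 3 against 3 libraries can give. Groups without overlap and with lower distal values were found for 3.09% of tested genes, and in either direction for 6.28%, so 1 of 9 members is close to this background. Left out one at a time, the libraries moved the value of NFASC between -0.21 and -0.18.

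L1CAM (the founding member, which promotes axon growth and binds itself and integrins, chromosome X, 153861514 to 153886173) had 19.2, 21.8 and 14.3 CPM in distal 1 to 3 and 16.8, 22.3 and 21.1 CPM in proximal 1 to 3. Its groups overlapped, and distal 3 was the lowest library. The mean was 18.4 ± 3.81 CPM in distal and 20.1 ± 2.92 CPM in proximal tumour (SD, n = 3 each). Its log2 fold change was -0.12 (SE 0.18, adjusted p 0.9997 by edgeR), and 0.03 without distal 3. The annotation places another gene on the same strand across part of L1CAM, U52112.1, in which 8.04% of the runs of 31 bases of the L1CAM transcript recur, so reads there could be split. Such runs also recurred in other genes for 4.68% of the CHL1, 4.62% of the NCAM1 and 3.7% of the MCAM transcript. For the remaining members the share was at most 0.403% (CADM1).

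NRCAM (which gathers sodium channels at nodes together with neurofascin, chromosome 7, 108147649 to 108456720) was read at a low level, with 0.837, 1.03 and 1.71 CPM in distal 1 to 3 and 0.658, 0.462 and 1.302 CPM in proximal 1 to 3. These values rest on 19, 25 and 28 reads in distal and 17, 10 and 29 reads in proximal libraries. The replicates numbered 3 were the highest of each group. The log2 fold change was 0.55 (SE 0.49, 95% interval -0.55 to 1.64), and it was 0.21 without distal 3 and 1.06 without proximal 3. Per kilobase of transcript, NFASC exceeded NRCAM 15.2 to 32.0 times in the distal libraries and 23.1 to 65.3 times in the proximal ones.

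CHL1 (close homolog of L1, chromosome 3, 196763 to 409417) was at the edge of detection. It had 3, 3 and 0 reads in distal 1 to 3 and 1, 7 and 2 reads in proximal 1 to 3, or 6 and 10 reads in all. The 0 of distal 3 allows a level of up to 0.183 CPM by the limit of 3 counts, and its Poisson interval reaches 0.225 CPM. The Poisson intervals of all 6 libraries overlapped. The annotation places genes on the opposite strand across parts of CHL1, L1CAM, NCAM1, NCAM2, CADM1 and MCAM, and the strand setting of the counting is not given in the sources used here, so reads of such pairs cannot be told apart.

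The NCAM family was represented mainly by NCAM2. NCAM2 (which acts in the sorting of olfactory axons, chromosome 21, 20998409 to 21543329) had 45.8, 39.8 and 34.5 CPM in distal 1 to 3 and 54.0, 25.5 and 48.2 CPM in proximal 1 to 3. Proximal 2 was the lowest library, with a Poisson interval of 23.5 to 27.8 CPM below that of each other library, while the distal values lay between the extremes of the proximal ones. The mean was 40.0 ± 5.64 CPM in distal and 42.6 ± 15.04 CPM in proximal tumour (SD, n = 3 each), with a log2 fold change of -0.09 (SE 0.28, adjusted p 0.9997 by edgeR). It was 0.12 without proximal 1, 0.01 without proximal 3 and -0.35 without proximal 2.

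NCAM1 (CD56, the main carrier of polysialic acid, chromosome 11, 112961420 to 113278436) had 0.353, 0.536 and 3.91 CPM in distal 1 to 3 and 0.774, 0.739 and 0.988 CPM in proximal 1 to 3. The reads were 8, 13 and 64 in distal and 20, 16 and 22 in proximal libraries. Distal 3 was the highest and distal 1 the lowest of all 6, so the distal libraries spanned the proximal ones on either side. In distal 3 the Poisson interval, 3.01 to 4.99 CPM, did not overlap that of any other library. The log2 fold change was 0.89 (SE 0.86, 95% interval -1.11 to 2.89, adjusted p 0.9997 by edgeR), and without distal 3 it was -0.89. By exact permutation (two-sided) p was 1.

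Set side by side per kilobase of transcript, NCAM2 exceeded NCAM1 96.5, 55.2 and 6.56 times in distal 1 to 3 and 51.9, 25.7 and 36.2 times in proximal 1 to 3. NCAM2 was the higher gene in all 6 libraries, and the ratio was smallest in distal 3. Distal 3 was also the library with the most muscle marker reads, at 2318 CPM. Proximal 3 came next in both muscle markers (323.0 CPM) and NCAM1 (0.988 CPM). Distal 1 was lowest in both (4.85 CPM of muscle markers and 0.353 CPM of NCAM1). The libraries between them did not keep a common order. Proximal 1 had 7.85 CPM of muscle markers and 0.774 CPM of NCAM1. Proximal 2 and distal 2 had more muscle markers (34.7 and 24.0 CPM) but less NCAM1 (0.739 and 0.536 CPM). Apart from distal 3, the Poisson intervals of NCAM1 overlapped between all libraries, so their NCAM1 order is not resolved. Of 14 muscle markers, all had reads in distal 3 and 10 in distal 1. The sum of 10 Schwann cell markers was 82.2, 126 and 78.6 CPM in distal 1 to 3 and 70.1, 65.3 and 161 CPM in proximal 1 to 3. Of these markers S100B had at most 0.0412 CPM in any library. The part of muscle or Schwann cell RNA in the NCAM1 counts was not tested. In distal 3 the neuronal and neuroendocrine factor NEUROD1 was also highest, at 6.47 CPM, with 0.308 and 0.618 CPM in distal 1 and 2 and 0.194, 0.0462 and 0.314 CPM in proximal 1 to 3.

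**Figure D3:**
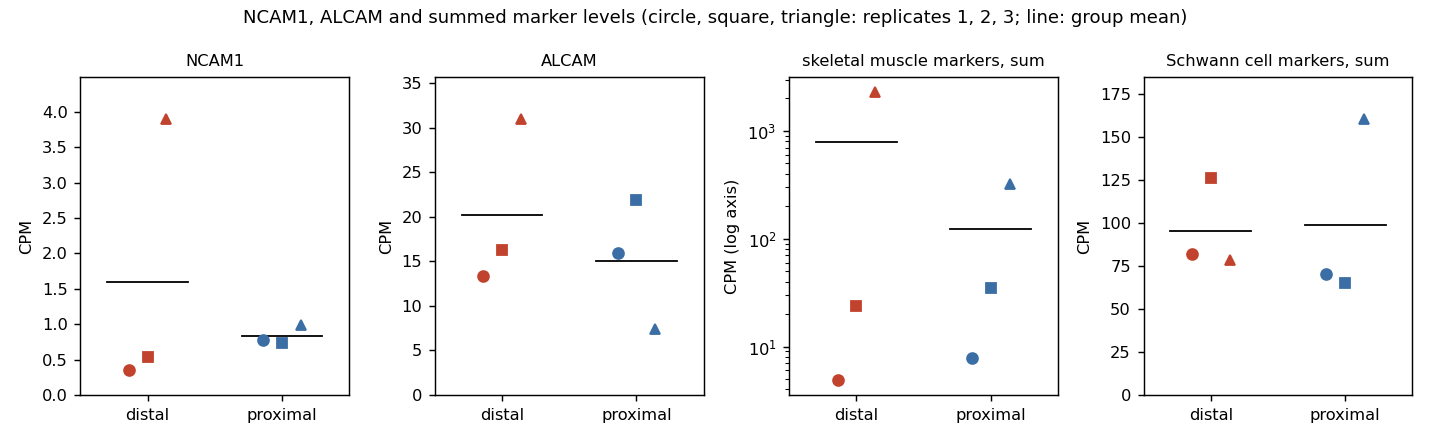
CPM of NCAM1 and ALCAM and the summed CPM of 14 skeletal muscle markers (log axis) and 10 Schwann cell markers, by group; circles, squares and triangles are replicates 1, 2 and 3 and lines are group means. The triangle of distal 3 is the highest point for NCAM1 (3.91 CPM), ALCAM (31.02 CPM) and muscle markers (2318 CPM), but not for Schwann cell markers, where proximal 3 is highest (161 CPM).

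CADM1 (SynCAM1, an adhesion molecule of synapses and epithelia, studied as a tumour suppressor in lung cancer, chromosome 11, 115169236 to 115504415) took a higher and a lower level that cut across the groups. It had 23.7, 22.0 and 33.5 CPM in distal 1 to 3 and 21.7, 36.9 and 21.7 CPM in proximal 1 to 3. Distal 3 and proximal 2 were high, with Poisson intervals of 30.8 to 36.5 CPM and 34.4 to 39.6 CPM that overlapped each other and lay above the intervals of the other 4 libraries. The mean was 26.4 ± 6.23 CPM in distal and 26.8 ± 8.79 CPM in proximal tumour (SD, n = 3 each). Its log2 fold change was -0.02 (SE 0.26). Its sign turned without distal 1 (0.04), without distal 2 (0.09) and without proximal 2 (0.28).

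ALCAM (CD166, which binds itself and the lymphocyte receptor CD6, chromosome 3, 105366909 to 105576900) had 13.4, 16.3 and 31.02 CPM in distal 1 to 3 and 15.98, 21.8 and 7.41 CPM in proximal 1 to 3. The highest and the lowest library were the replicates numbered 3 of each group, on opposite sides. Their Poisson intervals, 28.4 to 33.8 CPM in distal 3 and 6.32 to 8.63 CPM in proximal 3, were separate from those of all other libraries. The log2 fold change was 0.42 (SE 0.51, 95% interval -0.85 to 1.69, adjusted p 0.9997 by edgeR). It was -0.02 without distal 3 and 0.78 without proximal 2.

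MCAM (CD146, an adhesion molecule of melanoma cells, endothelium and pericytes, chromosome 11, 119308529 to 119317130) had 7.84, 6.51 and 4.89 CPM in distal 1 to 3 and 4.68, 8.96 and 8.44 CPM in proximal 1 to 3. Proximal 1 and distal 3 were low and the groups overlapped, with a log2 fold change of -0.19 (SE 0.28, adjusted p 0.9997 by edgeR). Without proximal 1 the value was -0.44 and without distal 3 it was -0.03. The defining endothelial gene PECAM1 was at 0 in all 3 distal libraries and at most 0.0462 CPM in the proximal ones. CDH5, CLDN5 and VWF had at most 0.305 CPM in any library. KDR and TEK had reads in every library and were highest in distal 3, at 0.794 and 1.16 CPM. The sum of the 9 endothelial and pericyte markers found in the file was 25.7 to 30.8 CPM in distal and 29.1 to 33.6 CPM in proximal tumour, most of it from CSPG4 and PDGFRB.

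CNTN1 (contactin 1, which is anchored in the membrane by a lipid and forms the axonal side of the junction with myelinating cells, chromosome 12, 40692439 to 41072415) varied 4.36-fold between libraries. It had 3.39, 2.51 and 5.68 CPM in distal 1 to 3 and 7.04, 1.80 and 1.62 CPM in proximal 1 to 3. Proximal 1 was the highest and proximal 3 the lowest library, so the proximal values enclosed the distal ones. The mean was 3.86 ± 1.63 CPM in distal and 3.49 ± 3.08 CPM in proximal tumour (SD, n = 3 each), with a log2 fold change of 0.13 (SE 0.63, 95% interval -1.36 to 1.62). The value was 1.16 without proximal 1, and it turned to -0.25 without distal 3, -0.18 without proximal 2 and -0.21 without proximal 3.

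**Figure D4:**
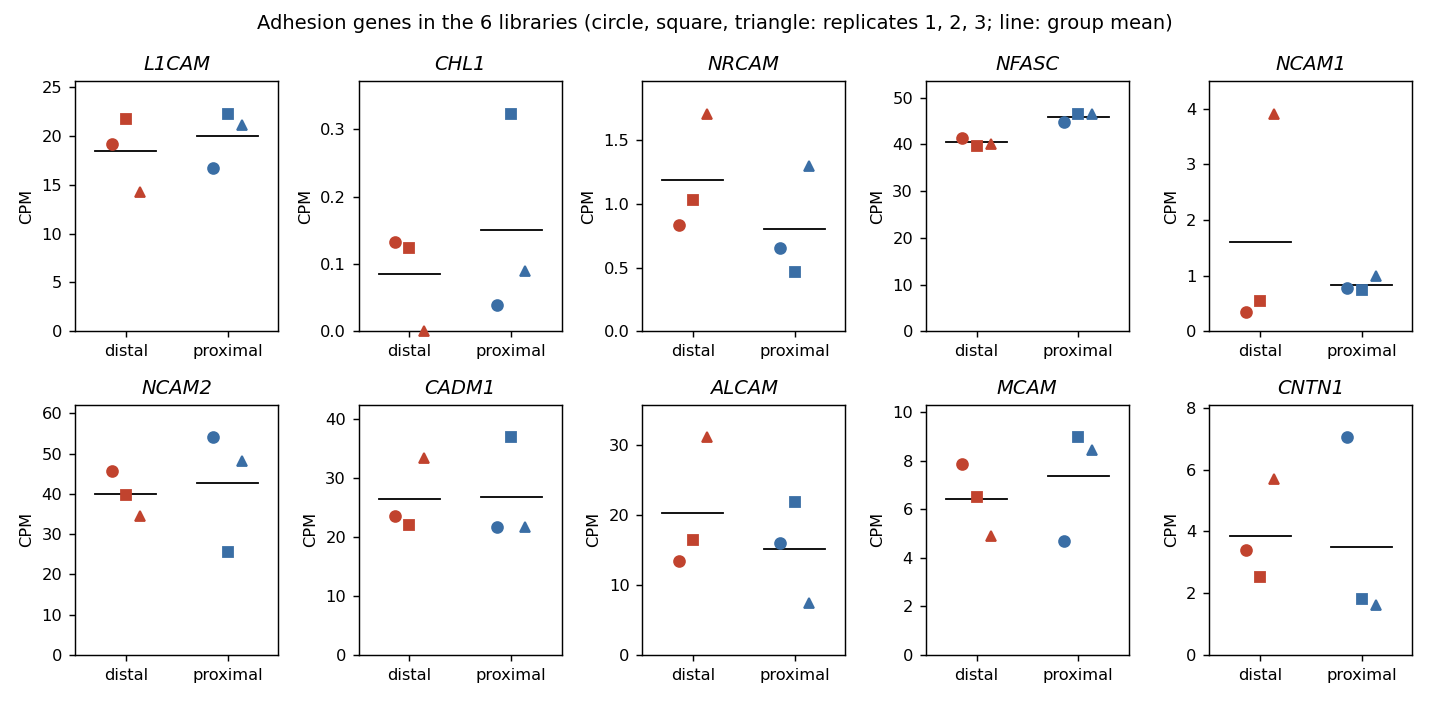
CPM of the 10 genes in each library, distal at the left and proximal at the right, each panel on its own linear axis from 0; circles, squares and triangles are replicates 1, 2 and 3 and lines are group means. The groups overlap in every panel except that of NFASC, where the 3 distal libraries sit between 39.8 and 41.4 CPM and the 3 proximal ones between 44.8 and 46.6 CPM.

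Several of the adhesion genes varied widely between single libraries. Both extremes lay in the same group for NCAM1, CNTN1 and NCAM2, and in different groups for ALCAM and NRCAM. The ratio of the highest to the lowest of the 6 libraries was 11.1 for NCAM1, 4.36 for CNTN1, 4.19 for ALCAM, 3.70 for NRCAM and 2.12 for NCAM2. It was 1.91 for MCAM, 1.70 for CADM1, 1.56 for L1CAM and 1.17 for NFASC. The median of the 9 members was 2.12, against 1.34 for all tested genes. A ratio above 2 was found for 5 of 9 members and for 17.8% of all tested genes, and one above 4 for 3 of 9 members and for 5.39% of all tested genes. NCAM1 and NRCAM are low genes, whose ratios also hold counting error, whereas ALCAM had 165 to 508 reads per library.

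Distal 3 was the highest library for 3 of the 9 tested members (NRCAM, NCAM1 and ALCAM) and the lowest for L1CAM. Proximal 2 was the highest for L1CAM, NFASC, CADM1 and MCAM and the lowest for NRCAM and NCAM2. As log2 deviations from the 6-library mean of each gene, distal 3 stood at 2.02 for NCAM1, 0.94 for ALCAM, 0.82 for both NRCAM and CNTN1, -0.44 for MCAM, -0.41 for L1CAM and -0.98 for the sparsely read CHL1. Proximal 2 stood at 1.11 for CHL1, 0.51 for CADM1, -0.65 for NCAM2, -0.78 for CNTN1 and -0.86 for NRCAM.

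**Figure D5:**
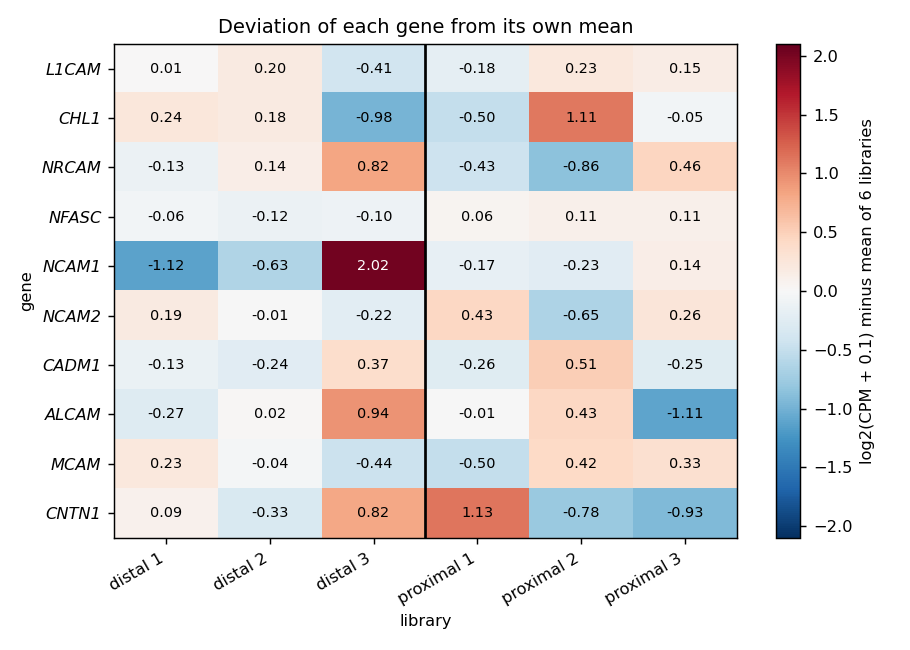
Deviation of log2(CPM + 0.1) of each gene from its mean over the 6 libraries, distal libraries left of the line and proximal libraries right of it; red is above and blue below the mean. NCAM1 in distal 3 is the largest deviation (2.02), and the row of NFASC stays within -0.12 and 0.11.

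Relatives outside the 10 were also read, and no gene of the related lists passed. Of 27 listed relatives 14 were tested, 7 with higher and 7 with lower distal values (median log2 fold change -0.04). CADM2, a relative of CADM1, had 84.8, 94.6 and 79.3 CPM in distal 1 to 3 and 103, 101 and 78.8 CPM in proximal 1 to 3. The other contactins were low, with at most 2.08 CPM for CNTN2 and at most 0.314 CPM for CNTN3 to CNTN6 in any library. The lowest p among relatives were those of BCAM, a laminin receptor, at a log2 fold change of 0.30 (SE 0.17), and SDK2, a synaptic adhesion molecule, at -0.18 (SE 0.12).

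Of 20 listed partners in the membrane 14 were tested, 5 with higher and 9 with lower distal values (median -0.02). CNTNAP1, the membrane partner of CNTN1, had 137, 134 and 82.6 CPM in distal 1 to 3 and 123, 160 and 166 CPM in proximal 1 to 3, with a log2 fold change of -0.34 (SE 0.22). ITGA5, an integrin subunit that pairs with the L1CAM receptor chain ITGB1, was at -0.24 (SE 0.20). Distal 3 was the lowest library for both.

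Of 19 listed skeleton and adaptor genes 16 were tested, 7 with higher and 9 with lower distal values (median -0.01). ANK2 (ankyrin-B, which holds L1CAM) had 45.3, 46.5 and 39.3 CPM in distal 1 to 3 and 64.5, 43.4 and 50.8 CPM in proximal 1 to 3, a log2 fold change of -0.28 (SE 0.14). ANK3 (ankyrin-G, which holds neurofascin and NRCAM at the initial segment) was low, at 0.661, 1.65 and 3.11 CPM in distal 1 to 3 and 0.813, 0.416 and 1.03 CPM in proximal 1 to 3, a log2 fold change of 1.23 (SE 0.58). The unadjusted p was 0.0868 for ANK2 and 0.0583 for ANK3, with adjusted p 0.9997 for both by edgeR.

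Of 10 listed shedding and glycan enzymes 8 were tested, 3 with higher and 5 with lower distal values (median -0.04). ADAM10, a protease that sheds L1CAM and other members, was read at 322 to 352 CPM in distal and 337 to 355 CPM in proximal tumour. ST8SIA2, which builds polysialic acid on NCAM1, had 11.1, 10.9 and 12.95 CPM in distal 1 to 3 and 9.32, 10.9 and 9.07 CPM in proximal 1 to 3, a log2 fold change of 0.26 (SE 0.16). B3GAT1, which helps to build the HNK-1 glycan, was at 0.25 (SE 0.27).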

How the data were processed

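The deposited values are raw read counts for each gene symbol, 1 column per library, as the authors made them. The submitters' processing notes list bcl2fastq, Trimmomatic 0.39, STAR 2.7.3a with featureCounts 2.0.1, and DESeq2, and the build GRCh38. For annotation, strand setting, host species and host reads, the method is not given in the sources used here. The comparison of distal with proximal used edgeR 4.0.16 in R 4.3.3: its expression filter, TMM scaling and the robust quasi-likelihood test, adjusted by Benjamini-Hochberg over all 13382 genes tested, with 0.05 as threshold. A standard error is the size of the log2 fold change over the square root of F. Exact permutation tests used log2(CPM + 0.1). The procedure was tested on simulated counts. DESeq2 1.42.0 and limma 3.58.1 (voom) were alternatives, beside other scalings, filters, a replicate block and libraries left out. The other lengths for levels per kilobase were added after seeing the data. The members and lists were chosen with earlier results of these data known. All members are named, and from each related list the 2 genes with the lowest p. ADAM10, CADM2, IGSF9, ITGB1, the other contactins and marker genes were named after their values were seen. Positions are from RefSeq (GRCh38.p14), and lengths and sequences from GENCODE v29. Promoters and the planned comparison of protein sequences were not analysed here. Results for some marker genes are not reported here.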

Additional observations from a re-analysis of the deposited data

How the results depend on the processing

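The count of genes called was 0 with all 6 libraries by edgeR, 1 by DESeq2 and between 0 and 1 with a library left out. The gene called without distal 1 was EDIL3. Members called and related genes called were 0 under each of the 15 alternatives run, and the smallest adjusted p of a member was 0.9979. Of 134 recomputed member values 116 kept their direction and 18 did not. The NCAM2 value of 0.00 without distal 3 was counted as kept. With all 6 libraries in use, only the NCAM1 log2 fold change turned, to -0.01 by limma-voom. All other changes of direction came from leaving libraries out, so the pooled count makes the directions look steadier than those settings do. With both libraries numbered 3 left out, the log2 fold changes were 0.07 for L1CAM, -0.76 for NCAM1, 0.10 for NCAM2, -0.35 for ALCAM, 0.08 for MCAM and -0.59 for CNTN1. Leaving out 1 library at a time gave -0.26 to 0.03 for L1CAM, -0.89 to 1.38 for NCAM1, -0.35 to 0.12 for NCAM2, -0.23 to 0.28 for CADM1, -0.02 to 0.78 for ALCAM and -0.25 to 1.16 for CNTN1. The cause was not tested. Same-numbered libraries had correlations of their deviations of 0.36, -0.11 and 0.18, against -0.32 to 0.13 for libraries with different numbers. The labels state no pairing, so the numbers were not taken as pairs, and these correlations do not exclude a shared source for some of them. With the replicate block, 0 genes and 0 members were called. CHL1, NCAM1 and NRCAM are limited by depth.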

Other observations

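NCAM1 varied most between libraries among the 10 adhesion genes, with an SD of 1.08 on the log2(CPM + 0.1) scale. Among the 10734 tested genes that averaged 5 CPM or more, the 3 whose levels ran most like it over the 6 libraries were TSC22D3 (r = 0.996), UBAP1L (r = 0.995) and ORAI2 (r = 0.993), which is a description of libraries that share depth and tissue. All 3 were highest in distal 3, where TSC22D3 had 37.9 CPM, UBAP1L 8.49 CPM and ORAI2 24.8 CPM. This follows from how the genes were picked, because NCAM1 itself was highest in distal 3 and that library weighs most in each r. In the other distal libraries TSC22D3 had 29.3 and 30.8 CPM, and in the proximal ones 31.2 to 32.5 CPM.

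Of the neuron markers, NEFL, NEFM and MAP2 were highest in distal 3, while SNAP25 and ELAVL3 were highest in proximal 2 and RBFOX3 and TUBB3 in proximal 3. SYT1, with 2 reads in distal 3 and 3 in proximal 1, had too few reads to order the libraries. NEFL had 54.7, 67.8 and 119 CPM in distal 1 to 3 and 69.4, 84.0 and 75.6 CPM in proximal 1 to 3, and NEFM had 39.1, 48.9 and 82.2 CPM in distal 1 to 3 and 38.2, 46.4 and 51.7 CPM in proximal 1 to 3. The immunoglobulin adhesion gene IGSF9 was highest in distal 3 as well, with 6.52, 6.02 and 21.8 CPM in distal 1 to 3 and 5.46, 10.9 and 7.23 CPM in proximal 1 to 3. By contrast ITGB1, the integrin chain that L1CAM can bind, was lowest in distal 3, with 873, 811 and 556 CPM in distal 1 to 3 and 825, 765 and 692 CPM in proximal 1 to 3.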
